A study of Mus musculus with 15 samples.

Results

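Interferon-stimulated genes were followed across 5 groups of transgenic mice and 15 arrays. The 9 genes listed were Irf7, Stat2, Ifit1, Ifit2, Ifit3, Rsad2, Oasl2, Isg15 and Usp18, listed by name. A gene was measured where a probe set of the array carried its symbol and no other symbol, and this held for 6 of the 9, among 14860 genes measured in all. The 6 were Irf7, Stat2, Ifit1, Ifit2, Rsad2 and Oasl2, each with 1 probe set. The probe set of Ifit3 also carries the symbol of its near copy Ifit3b, so no value is given to Ifit3 alone, and the shared probe set read 2.56 to 3.88 on the log2 scale over the 15 arrays. No probe set was named for Isg15 or Usp18 in the annotation used here. In the gene annotation Ifit1 overlaps Ifit1bl1 and Stat2 overlaps Apof, and a probe set could read both genes of such a pair. The other 4 overlap no annotated gene.

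Cells that sense viral nucleic acid secrete type I interferons, which bind the receptor formed by IFNAR1 and IFNAR2 on the same and neighbouring cells. The receptor's kinases JAK1 and TYK2 phosphorylate STAT proteins, among them STAT2, which joins IRF9 in a complex that switches on interferon-stimulated genes through a short promoter element, and IRF7, itself made in response to interferon, amplifies further production of interferon. In blood-forming tissue type I interferon is known to act on stem cells, and plasmacytoid dendritic cells, which make large amounts of it, carry much IRF7 at rest.

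Gene expression was measured in mononuclear spleen cells selected on magnetic beads for the surface protein Sca1, with 1 Affymetrix Mouse Exon 1.0 ST array per mouse and 3 mice per group. All mice were of the FVB/N strain and carried at least 1 human transgene. MRP8NRASD12 mice carried mutant NRAS under the MRP8 promoter, which is active mainly in myeloid cells. MRP8hBCL2 mice carried human BCL2 under that promoter, and in tethBCL2 mice human BCL2 was switched on by a transactivator under the MMTV promoter. These 3 single-transgenic lines are the founder mice. HR-MDS mice, a model of high-risk myelodysplastic syndrome, were crosses of MRP8NRASD12 with tethBCL2 and were sampled at day 80 after birth. AML post MDS mice, a model of acute myeloid leukemia after myelodysplasia, were crosses of MRP8NRASD12 with MRP8hBCL2 and were sampled at day 36. No source used here gives the ages of the founder mice, and the sample labels give the same disease state for every group, founders included. The 2 crosses differ in age as well as in the promoter of BCL2, and these cannot be told apart. Arrays of FVB/N mice without a transgene were not analysed here, so no value below is relative to normal mice. Mice are named by the numbers in the sample titles.

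All values are log2 signal as deposited, where a difference of 1 is a 2-fold difference. The array medians over the 14860 genes lay between 6.73 and 7.10, and arrays correlated with those of their own group at a mean r of 0.976 for MRP8NRASD12 mouse 8157 and 0.981 to 0.994 for the rest. The Y-linked gene Eif2s3y read 3.64 to 4.01 in the 3 MRP8NRASD12 arrays and in AML post MDS mouse 3518 and 9.25 to 10.31 in all others. The labels do not give sex, and its part in the results was not tested. Where MRP8NRASD12 mice are compared with tethBCL2, HR-MDS or MRP8hBCL2 mice, the genotype and this Y-linked difference cannot be told apart. The samples hold mature cells besides progenitors: the 8 B cell markers measured averaged 11.03 to 11.85 and the 15 neutrophil markers 5.65 to 11.91 over the 15 arrays, while Ly6a, which encodes Sca1, had no probe set named for it alone. Mouse numbers start at 3012 in 2 groups (MRP8hBCL2, AML post MDS) and at 7465 in the other 3, and comparisons across these sets passed the test given below for 22.1% to 24.2% of genes, and comparisons inside either set for 0.0135% to 8.83%. No batch is labelled, and the mouse line and any difference in processing between these sets cannot be told apart.

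A letter pattern of the interferon response element was looked for in the promoters of the members, taken from RefSeq on build GRCm38.p6 as windows from 250 bases before to 50 after the gene's start. The pattern was GAAA, any 2 bases and GAAA again, searched on both strands, so that on the opposite strand it reads TTTC, any 2 bases and TTTC, and overlapping matches were counted separately. It was found in 1131 of 32851 windows (3.44%), and in 451 of the 11894 genes tested that had a window (3.79%). Of the 6 measured members 3 held it: Ifit1 with 2 matches, Stat2 with 1 and Rsad2 with 1. It was not found in the windows of Irf7, Oasl2 and Ifit2, which are all set on starts that lie inside the annotated span of the gene. The 2 Ifit2 windows begin at 34550444 and 34550838, and the annotated start of Ifit2 is 34550550. Much of the 250 bases before that start was therefore not searched. Among 40 other type I interferon-stimulated genes measured, 29 had a window and 8 of these (27.6%) held the pattern. The stretches with a match are printed 5′ to 3′ on the gene's strand, with the matched letters in capitals, because they show how the pattern sits in the members that hold it. They lie at chr19:34640765-34640833 (Ifit1, plus strand), chr10:128270256-128270305 (Stat2, plus strand) and chr12:26456543-26456592 (Rsad2, minus strand), all upstream of the annotated start.
Ifit1: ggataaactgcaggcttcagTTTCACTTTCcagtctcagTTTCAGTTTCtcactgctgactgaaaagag
Stat2: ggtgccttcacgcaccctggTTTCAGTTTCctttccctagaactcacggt
Rsad2: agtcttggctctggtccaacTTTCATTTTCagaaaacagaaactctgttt
All 4 matches are of the TTTC form on the gene's strand, so the GAAA form lies on the opposite strand. A match describes the letters and was not tested as a binding site.

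The members did not move as 1 block. Irf7 was lowest in the AML post MDS mice and fell there against both founders and against HR-MDS, and Stat2 and Ifit2 fell in some of those comparisons. Ifit1 was highest in the MRP8hBCL2 founder mice, and Oasl2 was higher in them than in tethBCL2 mice. In HR-MDS mice no member differed from either founder by the test. A gene passed the test when its two-sided limma p, adjusted by Benjamini-Hochberg over the 14860 genes, was under 0.05.

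**Figure D1:**
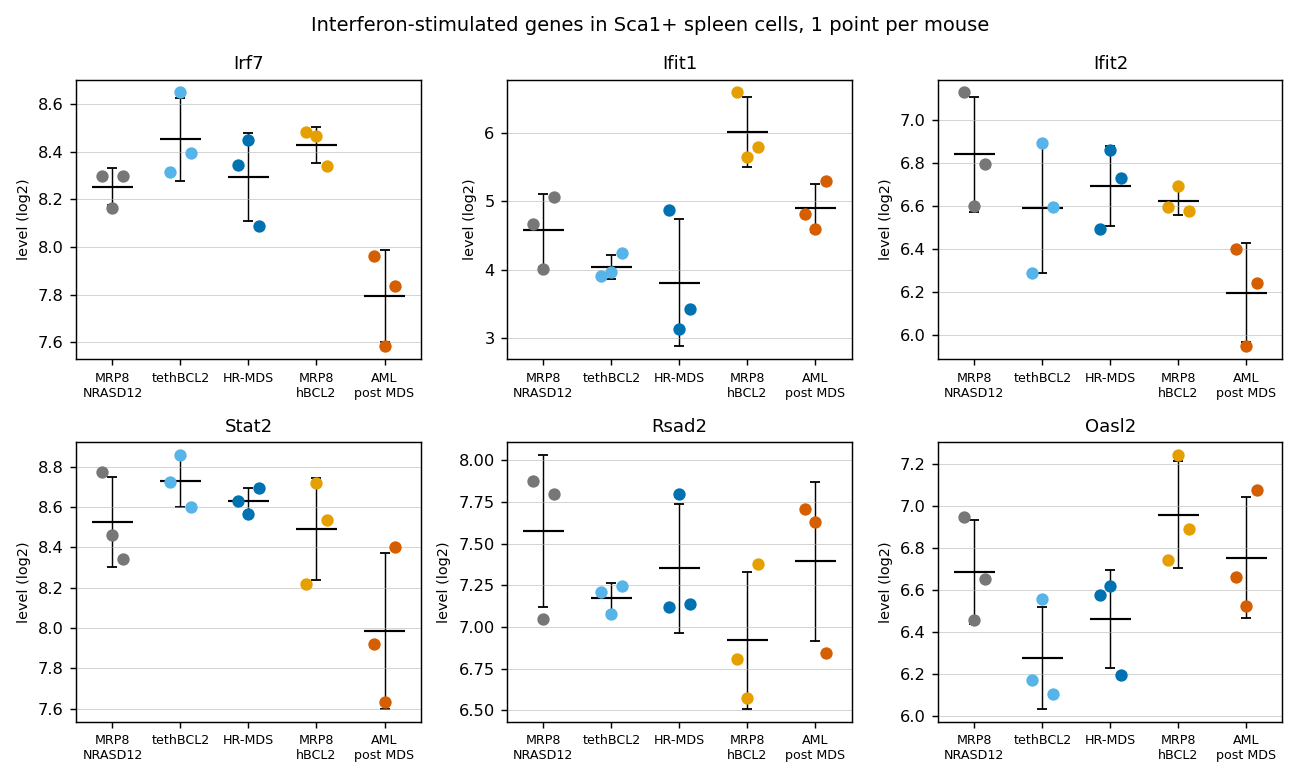
Log2 level of the 6 measured interferon-stimulated genes (y axis) in the 5 groups (x axis), with 1 point per mouse, a bar at the group mean and whiskers of 1 SD (n = 3). The AML post MDS points of Irf7 lie between 7.58 and 7.96, below every other point, and the MRP8hBCL2 points of Ifit1 lie between 5.65 and 6.60, above every other point.

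AML post MDS mice were first compared with the founder that shares their BCL2 transgene. Against MRP8hBCL2, 1 of 6 members passed and it was lower, where 1.93% of all genes passed and 0.646% were lower. Against the other founder, MRP8NRASD12, 3 of 6 members were lower and none higher, where 22.4% of all genes passed and 8.74% were lower. Against HR-MDS mice, 2 of 6 were lower and none higher, where 24.2% of all genes passed and 9.9% were lower. The median log2 fold of the 6 members was -0.47, -0.32 and -0.23 in these 3 comparisons, where the median of all genes was 0.03, -0.01 and 0.00. All AML post MDS arrays lay below all arrays of the other group for 3, 2 and 3 of the 6 members, where 7.21%, 13% and 18.7% of all genes did. The 3 comparisons share the AML post MDS arrays. Scaling moved the split of calls: among genes called, the share that was higher was 66.6%, 60.9% and 59.1% as deposited and 52.6%, 49.1% and 47.0% after quantile normalization.

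HR-MDS mice were compared with their own founders in the same way. Against tethBCL2, 0 of 6 members passed, where 0.451% of all genes did, and against MRP8NRASD12, 0 of 6 passed, where 0.0135% did. No member had an unadjusted limma p under 0.05 in either comparison, where 11.3% and 6.1% of all genes did, and none did by the methods' t-test either. The arrays of the 2 groups overlapped for all 6 members in both comparisons, where 26.1% and 7.86% of all genes did not overlap. The log2 folds ran from -0.23 ± 0.40 (SE) for Ifit1 to 0.19 ± 0.19 for Oasl2 against tethBCL2, and from -0.77 ± 0.40 for Ifit1 to 0.10 ± 0.18 for Stat2 against MRP8NRASD12. The error was widest for Ifit1.

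Whether the AML post MDS mice departed from MRP8hBCL2 by a different amount than the HR-MDS mice departed from tethBCL2 was tested as 1 contrast of the model. For the contrast 0 of 6 members passed, as did 0% of all genes, and 684 of 14860 genes (4.6%) had an unadjusted p under 0.05. Irf7 was the only member among these, at -0.48 ± 0.18 (SE) on the log2 scale, with an unadjusted limma p of 0.0192 and an adjusted p of 0.994. The fall of Irf7 in one model is therefore not shown to differ from its value in the other.

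**Figure D2:**
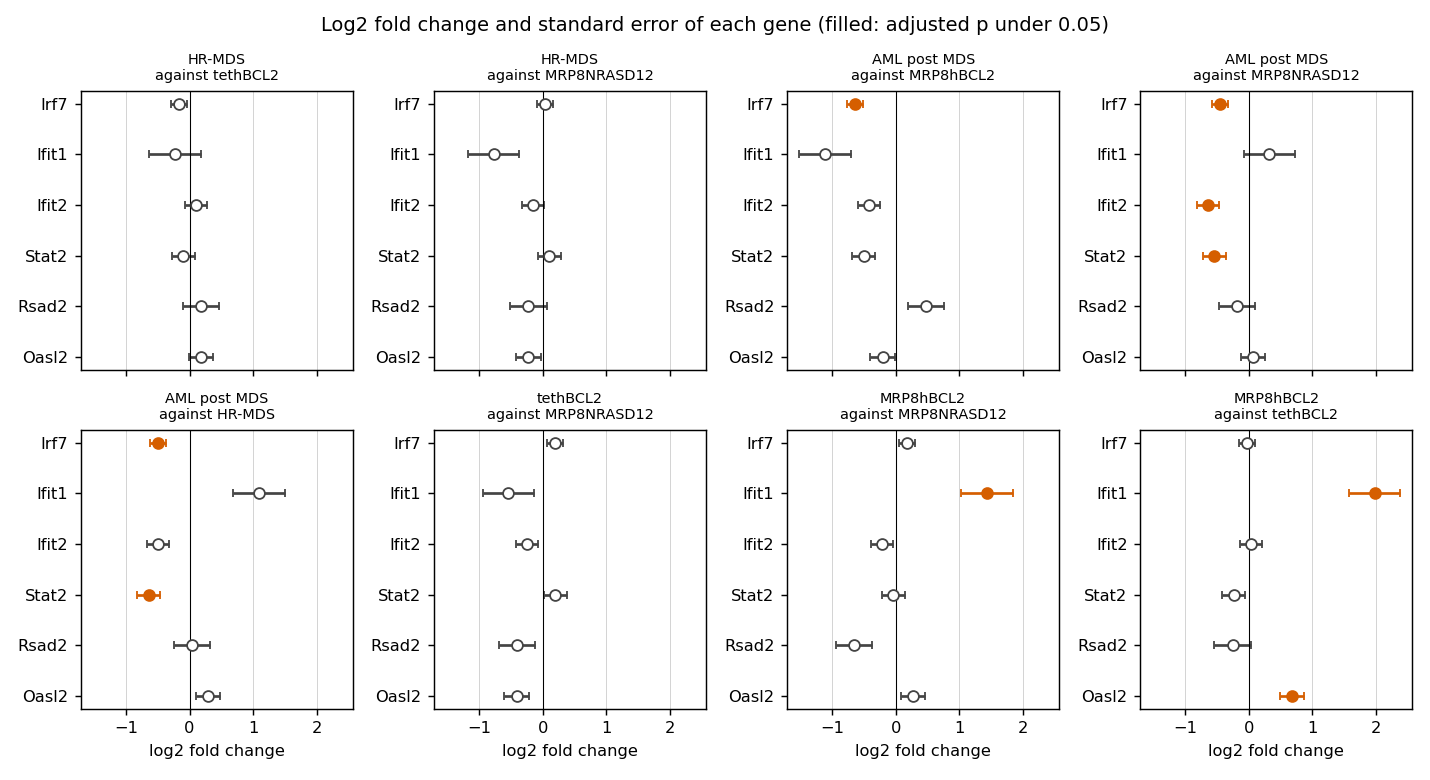
Log2 fold change (x axis) of each member (y axis) in 8 comparisons between groups, with whiskers of 1 standard error from limma. Filled points passed at an adjusted p under 0.05. Below 0 in AML post MDS mice these are Irf7 in every comparison, Stat2 against MRP8NRASD12 and HR-MDS, and Ifit2 against MRP8NRASD12. Above 0 in MRP8hBCL2 mice they are Ifit1 against both other founders and Oasl2 against tethBCL2.

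Irf7 encodes the interferon regulatory factor that amplifies type I interferon production. In the AML post MDS mice its log2 level was 7.96 (mouse 3622), 7.58 (3626) and 7.84 (3518). In the MRP8hBCL2 founders it was 8.48 (3012), 8.46 (3386) and 8.34 (3391), and in the MRP8NRASD12 founders 8.30 (8157), 8.16 (8158) and 8.30 (8159). All 3 AML post MDS arrays lay below all 6 founder arrays.
In the HR-MDS mice the level was 8.34 (8111), 8.45 (8019) and 8.09 (8398), and in the tethBCL2 mice 8.31 (7758), 8.65 (7465) and 8.39 (7466). No array of any other group reached down to the AML post MDS range, which held for 242 of the 14860 genes (1.63%). By group mean the order was AML post MDS 7.79 ± 0.19 (SD, n = 3), MRP8NRASD12 8.25 ± 0.08, HR-MDS 8.29 ± 0.19, MRP8hBCL2 8.43 ± 0.08 and tethBCL2 8.45 ± 0.18. Neighbours among the last 4 groups of this order overlap in range. The MRP8NRASD12 arrays lay below all arrays of both BCL2 founders, without passing (limma adjusted p = 0.361 against MRP8hBCL2 and 0.373 against tethBCL2), and the difference from tethBCL2 passed after subtraction of array medians (limma adjusted p = 0.0257).
The fall was 1.55-fold against MRP8hBCL2, a log2 fold of -0.64 ± 0.13 (SE; limma adjusted p = 0.0266). It was -0.46 ± 0.13 against MRP8NRASD12 (limma adjusted p = 0.0183) and -0.50 ± 0.13 against HR-MDS (limma adjusted p = 0.0105). Irf7 was thus among the 28 genes (0.188%) that were lower in AML post MDS mice than in both of their founders.
The call against MRP8hBCL2 depended on single arrays. Its adjusted p was 0.0979 without MRP8hBCL2 mouse 3012, 0.153 without 3386, 0.075 without AML post MDS mouse 3626 and 0.0602 without 3518, with log2 folds of -0.53 to -0.66, and it held without any 1 of the other 11 arrays. The call against MRP8NRASD12 was lost without MRP8NRASD12 mouse 8159 (0.0551) or AML post MDS mouse 3626 (0.0777), and that against HR-MDS without HR-MDS mouse 8019 (0.0507). AML post MDS mouse 3518, which differs from the other AML post MDS mice in Eif2s3y, had an Irf7 level between theirs.

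Stat2 encodes the STAT protein that carries the interferon signal into the nucleus together with IRF9. Its log2 level in the AML post MDS mice was 7.92 (3622), 7.63 (3626) and 8.40 (3518). In the HR-MDS mice it was 8.63 (8111), 8.57 (8019) and 8.69 (8398), so that every AML post MDS array lay below every HR-MDS array. In the founder arrays it ran from 8.22, in MRP8hBCL2 mouse 3012, to 8.86, in tethBCL2 mouse 7465.
AML post MDS mouse 3518 lay inside the range of the MRP8hBCL2 mice (8.22, 8.72 and 8.54) and of the MRP8NRASD12 mice (8.77, 8.46 and 8.34). Stat2 fell by 0.65 ± 0.18 (SE) on the log2 scale against HR-MDS (limma adjusted p = 0.0187) and by 0.54 ± 0.18 against MRP8NRASD12 (limma adjusted p = 0.0466). Against MRP8hBCL2 the value was -0.51 ± 0.18 and did not pass (limma adjusted p = 0.173).
The call against MRP8NRASD12 was close to the threshold: it was lost without any 1 of 11 of the 15 arrays, at adjusted p of 0.0561 to 0.184, arrays of other groups included, since all share 1 estimate of the spread. That against HR-MDS was lost without HR-MDS mouse 8111 or 8398 or AML post MDS mouse 3622 or 3626, at adjusted p of 0.0518 to 0.0848.

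Ifit1 and Ifit2 encode related proteins with tetratricopeptide repeats that bind foreign or incompletely capped RNA or limit its translation, and they lie close together on chromosome 19. Their patterns over the groups were not alike. The log2 level of Ifit2 in the AML post MDS mice was 6.40 (3622), 5.95 (3626) and 6.24 (3518), below all MRP8hBCL2 mice (6.60, 6.69 and 6.58), all MRP8NRASD12 mice (7.13, 6.60 and 6.80) and all HR-MDS mice (6.49, 6.86 and 6.73). The tethBCL2 mice, at 6.29, 6.90 and 6.59, overlapped with them through mouse 7758.
Ifit2 fell by 0.65 ± 0.17 (SE) on the log2 scale in AML post MDS against MRP8NRASD12 (limma adjusted p = 0.0160), a 1.57-fold difference. It was -0.50 ± 0.17 against HR-MDS (limma adjusted p = 0.0520) and -0.43 ± 0.17 against MRP8hBCL2 (limma adjusted p = 0.239), and neither passed. The call was lost without AML post MDS mouse 3626 (0.0697). Against HR-MDS it was gained without any 1 of 6 arrays (lowest adjusted p 0.0319).

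The log2 level of Ifit1 in the MRP8hBCL2 mice was 6.60 (3012), 5.65 (3386) and 5.80 (3391). In the tethBCL2 mice it was 3.91 (7758), 3.96 (7465) and 4.25 (7466), and in the MRP8NRASD12 mice 4.67 (8157), 4.0 (8158) and 5.06 (8159). The MRP8hBCL2 arrays lay above all arrays of every other group, a pattern held by 319 genes (2.15%).
In the AML post MDS mice it was 4.82 (3622), 4.60 (3626) and 5.30 (3518), below the MRP8hBCL2 founders and above the tethBCL2 mice. In the HR-MDS mice it was 4.88 (8111), 3.13 (8019) and 3.43 (8398), so that mouse 8111 stood apart from the others of its group. These levels were low on the arrays: 8.56% to 12.6% of genes read lower than Ifit1 in the tethBCL2 mice, and 2.23% and 4.42% in HR-MDS mice 8019 and 8398, so folds against these groups hold for the deposited values and may not be exact. Ifit1 had the widest spread of the 6 members within groups, with an SD of 0.93 in HR-MDS (n = 3).
Against tethBCL2 mice the deposited values of Ifit1 were 3.94-fold higher in MRP8hBCL2 mice, a log2 fold of 1.98 ± 0.40 (SE; limma adjusted p = 0.00288), and against MRP8NRASD12 mice 2.71-fold higher, at 1.44 ± 0.40 (limma adjusted p = 0.0202). The first passed without any 1 array, and the second was lost without MRP8NRASD12 mouse 8158 (limma adjusted p = 0.0921) or MRP8hBCL2 mouse 3012 (0.0806).
AML post MDS mice read -1.11 ± 0.40 against MRP8hBCL2 (limma adjusted p = 0.178) and 1.09 ± 0.40 against HR-MDS (limma adjusted p = 0.0654), and neither passed. Without HR-MDS mouse 8111 the second became 1.63 and passed (limma adjusted p = 0.00399), with the low values of the other 2 HR-MDS mice on that side.

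Oasl2 encodes a member of the oligoadenylate synthetase family, whose enzymes make the messenger that activates RNase L. Its log2 level was 6.74 (3012), 7.24 (3386) and 6.89 (3391) in the MRP8hBCL2 mice and 6.17 (7758), 6.55 (7465) and 6.10 (7466) in the tethBCL2 mice. All MRP8hBCL2 arrays lay above all tethBCL2 arrays. Oasl2 was 1.61-fold higher in MRP8hBCL2 mice, a log2 fold of 0.68 ± 0.19 (SE; limma adjusted p = 0.0195). The call was lost without tethBCL2 mouse 7758 (0.0712) or 7466 (0.0812) or MRP8hBCL2 mouse 3386 (0.0926), and also after quantile normalization (0.0521) or subtraction of each array's median (0.0508). Over the other 9 arrays Oasl2 ran from 6.19 to 7.08 and passed in no comparison.

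Rsad2 encodes viperin, an enzyme of the endoplasmic reticulum that makes a chain-terminating nucleotide against viruses. It passed in none of the 8 comparisons. Its log2 level was 6.81, 6.58 and 7.38 in the MRP8hBCL2 mice, 7.71, 7.63 and 6.85 in the AML post MDS mice and 7.88, 7.05 and 7.80 in the MRP8NRASD12 mice, so 1 mouse in each group stood apart from its other 2 and the groups overlapped. In the tethBCL2 mice it was 7.21, 7.08 and 7.24, and in the HR-MDS mice 7.12, 7.80 and 7.14. Rsad2 was the only member whose value was above 0 in AML post MDS against MRP8hBCL2, at 0.47 ± 0.28 (SE; limma adjusted p = 0.475).

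Among the founder mice, MRP8hBCL2 differed from tethBCL2 in 2 of 6 members, both higher, where 22.6% of all genes passed and 13.5% were higher. It differed from MRP8NRASD12 in 1 of 6, higher, where 22.1% passed and 12.2% were higher. The tethBCL2 and MRP8NRASD12 mice differed in 0 of 6, where 8.83% passed, and the smallest unadjusted limma p was 0.0519, for Oasl2. All arrays of the first group lay above all of the second for 2, 2 and 1 of the 6 members in these 3 comparisons, where 24%, 15.3% and 9.5% of all genes did. The median log2 fold of the members was 0.00 between MRP8hBCL2 and tethBCL2, with 3 members above 0 and 3 below. Among genes called between these founders, the share that was higher was 59.6% as deposited, 47.1% after quantile normalization and 36.6% after subtraction of each array's median.

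Of 56 other type I interferon-stimulated genes listed, 40 were measured. In AML post MDS against MRP8hBCL2 none of the 40 passed and 31 had a value below 0, with a median log2 fold of -0.24 where that of all genes was 0.03. At an unadjusted limma p under 0.05 there were 10, all lower, where 15.8% of all genes reached it in either direction, and the methods' t-test gave 5, all lower. Among them were Mx1, a GTPase that blocks viral replication, at -0.67 ± 0.21 (SE; limma adjusted p = 0.126), Ddx60, a helicase, at -0.84 ± 0.26 (0.106), and Samd9l, a growth inhibitor, at -0.62 ± 0.18 (0.10).
Against HR-MDS, 7 of the 40 were higher and 9 lower in AML post MDS mice, where 14.3% of all genes were higher and 9.9% lower, and against MRP8NRASD12 8 were higher and 8 lower, where 13.6% were higher and 8.74% lower. Isg20, an exonuclease, rose by 0.97 and 1.05 on the log2 scale, and Epsti1 rose by 0.91 and 1.12. Ddx60 fell by 0.95 and 1.02, Adar, an RNA-editing enzyme, fell by 0.74 and 0.76, and Rtp4 fell by 0.94 and 1.09. Members such as Irf7 and Stat2 therefore fell in comparisons in which other genes of the response rose. Both of these comparisons cross the sets of mouse numbers described above.
These counts moved with single arrays: the number higher against MRP8NRASD12 was 15 without MRP8NRASD12 mouse 8157, 3 without MRP8NRASD12 mouse 8158 or 8159 or AML post MDS mouse 3518, and 5 without AML post MDS mouse 3622, and the number lower was 5 without AML post MDS mouse 3626. Against HR-MDS the number higher was 4 without HR-MDS mouse 8111 or 8398 or AML post MDS mouse 3622, and 3 without AML post MDS mouse 3518. In MRP8hBCL2 against MRP8NRASD12 7 of the 40 were higher and 2 lower, where 22.1% of all genes passed and 12.2% were higher. Epsti1 was among those higher, by 1.36 ± 0.24 (SE), so its rise was not particular to AML post MDS mice.

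**Figure D3:**
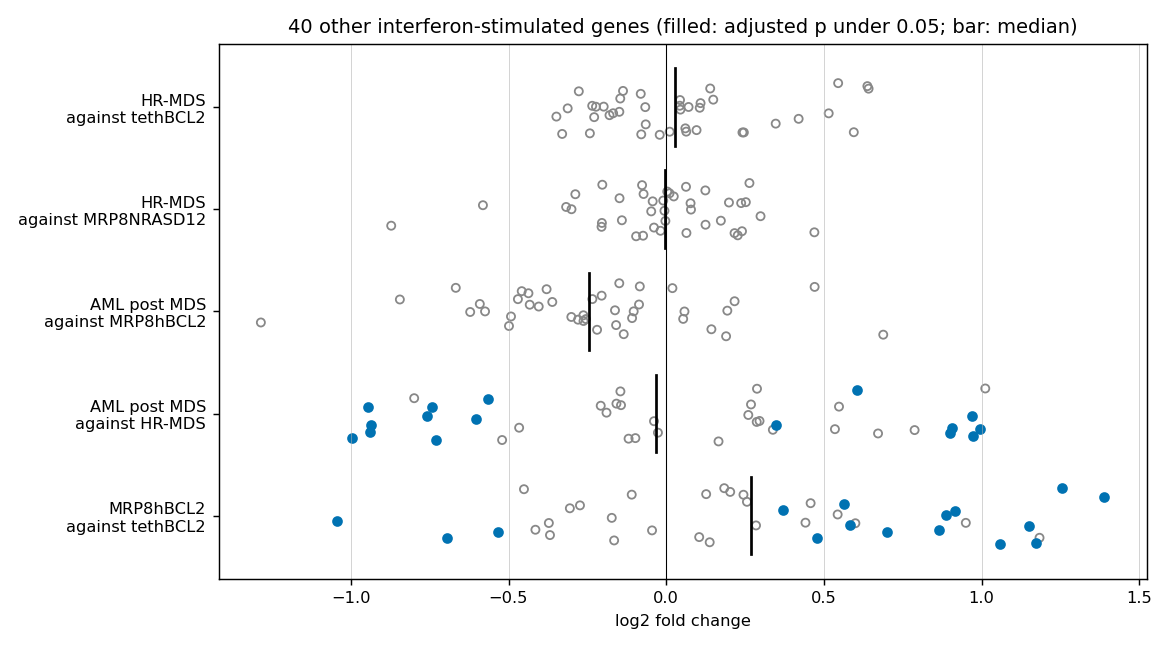
Log2 fold change (x axis) of the 40 other type I interferon-stimulated genes in 5 comparisons (y axis), with 1 point per gene, filled where the adjusted p was under 0.05, and a bar at the median. In AML post MDS against MRP8hBCL2 no point is filled and the median is -0.24. In MRP8hBCL2 against tethBCL2 there are 13 filled points above 0 and 3 below, where 13.5% of all genes were higher.

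In MRP8hBCL2 against tethBCL2 mice 13 of the 40 genes were higher and 3 lower, with a median of 0.27 where that of all genes was 0.03. Of all 14860 genes 22.6% passed in this comparison, 1999 higher (13.5%) and 1355 lower, and the counts of the other lists below stand beside these shares. The largest rises by log2 fold were Isg20 (1.39 ± 0.22, SE), Ifi203, a DNA-binding protein (1.26 ± 0.41), and Dtx3l, a ubiquitin ligase (1.17 ± 0.22), and Mx1 rose by 0.70 ± 0.21. Tdrd7, Nmi and Parp14 fell by 1.04, 0.69 and 0.53. The number higher was 6 without MRP8hBCL2 mouse 3391 and 8 without MRP8hBCL2 mouse 3386 or any 1 tethBCL2 mouse.
The sensors of nucleic acid and their adaptors, 17 of 18 measured, showed 9 higher and 1 lower, where 13.5% of all genes were higher. Tlr7, the endosomal receptor of single-stranded RNA, rose by 1.69 ± 0.42, Aim2, a sensor of cytosolic DNA, by 1.35 ± 0.32 and Myd88, the adaptor of these Toll-like receptors, by 1.02 ± 0.17, while the kinase Tbk1 fell by 0.66 ± 0.10. Other comparisons across the sets of mouse numbers gave rises too. In AML post MDS against HR-MDS 5 of the 17 were higher and 1 lower, where 14.3% of all genes were higher. Tlr7, Aim2 and Myd88 rose there by 1.80 ± 0.42, 1.48 ± 0.32 and 0.86 ± 0.17. Against MRP8NRASD12 8 were higher in MRP8hBCL2 and 6 in AML post MDS mice, with 1 lower in each, where 12.2% and 13.6% of all genes were higher.
In MRP8hBCL2 against tethBCL2 mice, of the 9 receptor genes and kinases, Ifnar2 (0.76 ± 0.18) and Tyk2 (0.47 ± 0.12) rose and Ifnar1 fell by 0.58 ± 0.11. Of 8 other STAT and IRF genes measured, Irf2 (0.75 ± 0.22), Irf9 (0.56 ± 0.18) and Irf8 (0.43 ± 0.14) rose and Irf4 fell by 0.58 ± 0.19.
Neutrophil markers moved with this comparison: 12 of 15 measured were higher in MRP8hBCL2 mice, and their mean level was 9.0 to 9.90 there and 5.65 to 6.02 in tethBCL2 mice. Monocyte and macrophage markers were higher for 4 of 13 and lower for 1, T cell markers higher for 5 of 8, NK cell markers for 3 of 5, stem and progenitor markers for 3 of 5 and plasmacytoid dendritic cell markers for 2 of 8. Conventional dendritic cell and plasma cell markers were higher for 1 of 5 each. B cell markers were lower for 2 of 8 and erythroid markers for 1 of 5, with none higher in either list. Of all genes 13.5% were higher, and lists this short hold few genes to set beside that share. The part of these cells in the interferon gene values was not tested, and in such bulk samples fewer cells of a type and less RNA per cell cannot be told apart.

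Genes of the same pathway were read beside Irf7 in AML post MDS against MRP8hBCL2. Among all genes 1.93% passed, and of the 17 sensors and adaptors only Ikbke, a kinase that phosphorylates IRF3 and IRF7. Its log2 level was 9.18, 9.0 and 9.04 in the AML post MDS mice and 9.49, 9.64 and 9.45 in the MRP8hBCL2 mice, which do not overlap. It fell by 0.45 ± 0.10 (SE; limma adjusted p = 0.0335), and the call was lost without any 1 of 8 arrays (any 1 tethBCL2 or AML post MDS mouse, or MRP8hBCL2 mouse 3012 or 3386). None of the 8 ligand genes measured passed, nor did any of the 9 receptor genes and kinases, the 8 other STAT and IRF genes, the 16 gamma-interferon targets, the 4 IFITM genes or the 8 inhibitors of the pathway. At an unadjusted limma p under 0.05 these 6 lists held 7 genes between them, 4 lower (Ifng, Jak1, Irf1, Tgtp1) and 3 higher (Psmb10, Ifitm3, Ptpn1).

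Markers of several cell types moved in the same comparison as Irf7, those of plasmacytoid dendritic cells among them. Of 8 measured, all 8 had values below 0 and 2 passed: Siglech, a surface lectin of these cells, at -1.65 ± 0.36 (SE; limma adjusted p = 0.0335), and Ccr9, a chemokine receptor on them, at -1.52 ± 0.27 (0.0231). In this comparison 1.93% of all genes passed. The log2 level of Siglech was 6.80 (3622), 6.32 (3626) and 8.06 (3518) in the AML post MDS mice and 8.69, 8.77 and 8.68 in the MRP8hBCL2 mice. Mouse 3518 had the highest Siglech level of the AML post MDS mice, and its Irf7 level, 7.84, lay between those of the others.
The mean of the 8 markers was 8.33 to 9.0 in AML post MDS, 9.17 to 9.21 in MRP8hBCL2, 8.49 to 8.88 in MRP8NRASD12, 8.79 to 9.04 in HR-MDS and 9.06 to 9.21 in tethBCL2 mice. In the MRP8NRASD12 mice Siglech was 7.12 to 7.63 and Irf7 8.16 to 8.30. These Irf7 levels were above all AML post MDS arrays and below all MRP8hBCL2 and tethBCL2 arrays. All 8 T cell markers measured had values below 0 in AML post MDS against MRP8hBCL2, with a median log2 fold of -0.59, and none passed, although all 8 had an unadjusted limma p under 0.05. Their mean level was 10.15 to 10.41 in AML post MDS and 10.82 to 10.93 in MRP8hBCL2 mice. All 8 B cell markers were below 0 as well and none passed, with a median of -0.33. Of 5 conventional dendritic cell markers 3 were below 0 and only Clec9a passed (-1.46), and of 5 NK cell markers 3 were below 0 and only Ncr1 passed (-0.75). All 15 neutrophil markers were above 0, and Retnlg and Mmp9 passed, at 3.71 and 2.95. The 5 stem and progenitor markers were above 0 and none passed. The part of these cells in the Irf7 values was not tested.

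**Figure D4:**
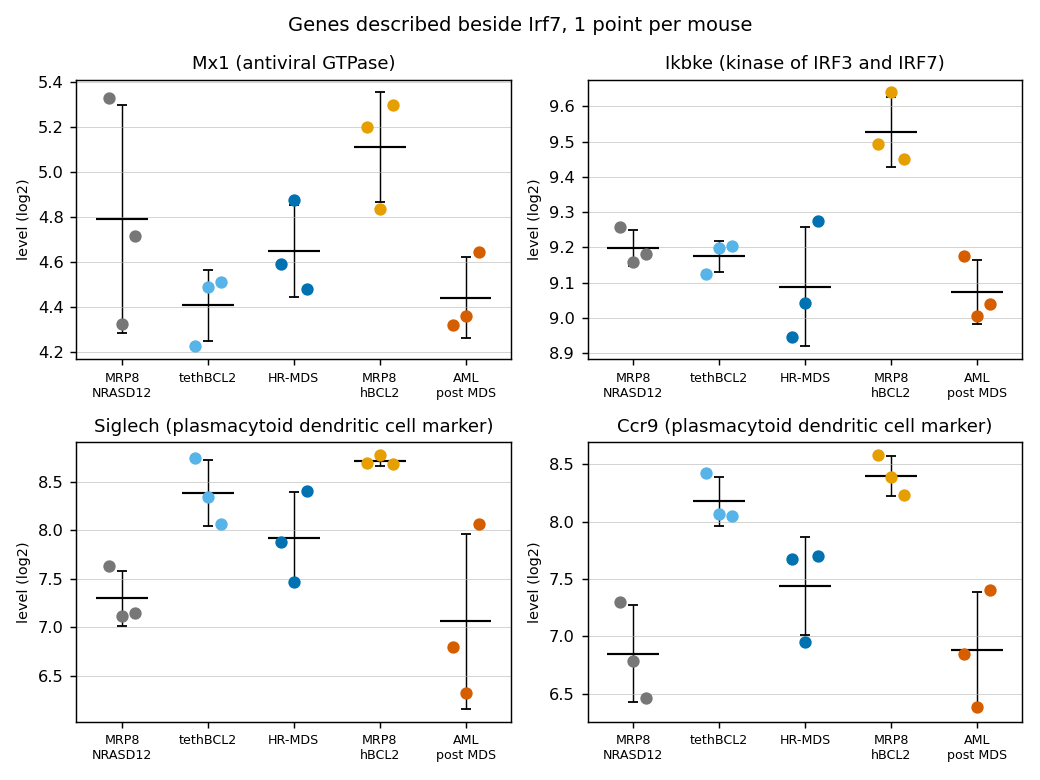
Log2 level (y axis) of Mx1, Ikbke and the plasmacytoid dendritic cell markers Siglech and Ccr9 in the 5 groups (x axis), with 1 point per mouse, a bar at the group mean and whiskers of 1 SD (n = 3). Siglech in the AML post MDS mice spans 6.32 to 8.06, and Ikbke in the MRP8hBCL2 mice lies between 9.45 and 9.64, above every other point.

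The gene of gamma interferon and the 16 of its targets that were measured were read in the same way. Ifng passed as higher than in MRP8NRASD12 mice in 3 groups, by 1.73 ± 0.32 (SE) on the log2 scale in MRP8hBCL2, 1.23 ± 0.32 in tethBCL2 and 0.97 ± 0.32 in AML post MDS mice (limma adjusted p = 0.00151, 0.0283 and 0.0400), and it was at 0.76 ± 0.32 in HR-MDS mice, which did not pass (limma adjusted p = 0.795). The 4 values share the MRP8NRASD12 arrays. Of the 16 targets 4 were higher and none lower in AML post MDS mice against MRP8NRASD12, where 13.6% of all genes were higher and 8.74% lower. Against HR-MDS the counts were also 4 and none, where 14.3% of all genes were higher and 9.9% lower. In MRP8hBCL2 against MRP8NRASD12 5 targets were higher and 1 lower, where 22.1% of all genes passed and 12.2% were higher. None of the targets passed in tethBCL2 against MRP8NRASD12, where 8.83% of all genes did. None passed in AML post MDS against MRP8hBCL2 either, where 1.93% of all genes did. The log2 level of Ifng in the MRP8NRASD12 mice was 6.33 (8157), 7.27 (8158) and 7.92 (8159), a spread wider than in any other group. By the methods' t-test Ifng had no unadjusted p under 0.05 in tethBCL2 or AML post MDS against MRP8NRASD12. Those calls therefore rest on the spread that limma shares over genes and groups. Cxcl9, a chemokine induced by gamma interferon, rose in AML post MDS mice by 2.13 ± 0.37 against MRP8NRASD12 and 2.09 ± 0.37 against HR-MDS, and Socs1, an inhibitor of JAK kinases, rose by 1.0 ± 0.13 and 1.19 ± 0.13. Cxcl9 was also higher in MRP8hBCL2 than in MRP8NRASD12 mice, by 2.0 ± 0.37 (limma adjusted p = 0.00166), so its rise was not particular to AML post MDS mice. Ifitm3, which restricts viral entry and is also abundant in myeloid cells, was lower in tethBCL2 than in MRP8NRASD12 mice (-3.06 ± 0.58), with the neutrophil and monocyte markers.

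How the members moved together was described over the 15 arrays, which share groups, so correlations are given with no p. Over the 15 pairs of members Pearson's r ran from -0.35 to 0.73 with a median of 0.02. The highest were Irf7 with Stat2 (0.73), Irf7 with Ifit2 (0.71), Ifit2 with Stat2 (0.66) and Ifit1 with Oasl2 (0.64). With each group's mean taken off, the range was -0.38 to 0.76 with a median of 0.23. Irf7 with Ifit2 then stayed at 0.69 and Stat2 with Oasl2 reached 0.76, while Irf7 with Stat2 was 0.25 and Ifit1 with Oasl2 0.15. In AML post MDS mice Irf7 and Ifit2 both had their lowest group mean, while over the other 4 groups the means of these genes ran in opposite order.

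**Figure D5:**
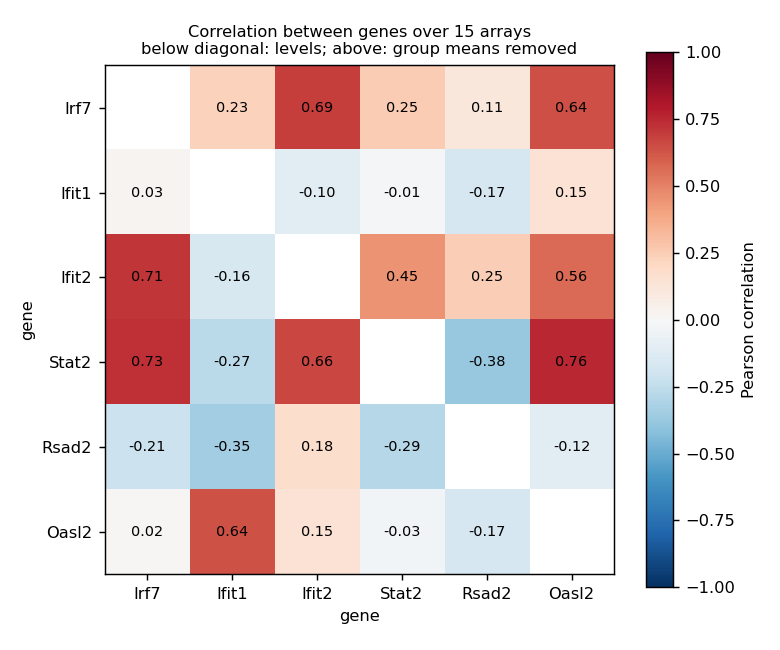
Pearson correlation of the log2 levels of each pair of members over 15 arrays, below the diagonal as measured and above it with group means removed, with both axes listing the genes and the colour scale running from -1 to 1. Irf7, Ifit2 and Stat2 form the block of high values below the diagonal (0.66 to 0.73).

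The genes whose pattern was most like that of the members' mean, each member first centred on its own mean, were ranked by Pearson's r over the 15 arrays among the 14854 other genes. The members were not scaled, so Ifit1, with the widest range (3.13 to 6.60), weighs most in this mean and in the ranking. Mx1 ranked first (r = 0.85), followed by Slc3a1 (0.80) and Calcrl (0.77), and Ifi27, another interferon-stimulated gene, ranked 10 (0.72). With group means removed the first 3 were Calcrl (0.92), Arhgef3 (0.92) and Dppa4 (0.89). Of the 40 other type I interferon-stimulated genes, 38 had an r above 0 over the arrays, with a median of 0.36 where that of all genes was 0.01, and 5 were among the first 100. With group means removed 39 had an r above 0, with a median of 0.49 where that of all genes was 0.13, and 1 was among the first 100.
The log2 level of Mx1 was 5.20, 4.84 and 5.30 in the MRP8hBCL2 mice and 4.32, 4.36 and 4.65 in the AML post MDS mice, which do not overlap. In MRP8NRASD12 mouse 8157 it was 5.33, above all other arrays, and that mouse also had the highest mean of the 6 members, 7.28. Among the other arrays the 3 MRP8hBCL2 mice had the highest members' means, 7.22 to 7.25, and AML post MDS mouse 3626 the lowest of all 15, 6.65. By group mean, the MRP8hBCL2 mice were highest in Ifit1 and Oasl2 and lowest in Rsad2.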

How the data were processed

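The authors deposited a log2 value for every probe set on each array, and name EASANA, FAST DB and build mm9 as what was used to make them. How probes were summarized and arrays scaled is not stated in any source read here. The platform annotation gives 1 symbol to 14996 of the 23332 probe sets, more than 1 to 1019 and none to 7317. Probe sets with 1 symbol were matched to RefSeq genes of GRCm38.p6 by Entrez number (14941 matched). For 135 genes with several, the one with the highest mean over the 15 arrays was used, which gave 14860 genes, all tested without a filter on low values. No deposited column was left out, and no detection filter like that of the authors was applied.

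Each comparison was a contrast of 1 limma 3.58.1 model (R 4.3.3) whose coefficients were the means of the 5 groups, with moderated variances and Benjamini-Hochberg adjustment over all genes, two-sided. The methods' unpaired t-test was an alternative, as were quantile normalization, subtraction of array medians, omission of the lowest 0.25 of genes, array weights, a model fitted to just the arrays of each comparison, robust eBayes with a trend, tests of every probe set, averages over probe sets of a gene, omission of each array in turn, and omission of MRP8NRASD12 8157 with HR-MDS 8398. The steps were tested on simulated data.

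The members, the gene lists and the cell type markers were chosen with earlier results of these data known. From each list, the genes named were drawn from up to 4 per comparison that passed, by largest change, or up to 2 with the smallest p where none passed. The 10 genes most like the members were drawn as well. Not every gene drawn is named, and a gene drawn for a comparison may be described in another. Adar, Eif2s3y, Nmi, Parp14 and Tbk1 fall outside this rule, and they and the genes described by an unadjusted p were named after their values were seen. Mice of a group are separate animals. Precision is limited by having 3 arrays in each group, and a permutation test of 3 against 3 cannot go below a two-sided p of 0.1. Python 3.11.15 read the tables and matplotlib 3.10.9 drew the figures.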

Additional observations from a re-analysis of the deposited data

How the results depend on the processing

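No value of a member that passed changed sign in any alternative. The number of members called in AML post MDS against MRP8hBCL2 (1) became 0 with only the arrays compared, with all probe sets and by the methods' t-test, and ranged from 0 to 1 when each array was left out. Against MRP8NRASD12 it was 3, and became 0 with only the arrays compared and by the t-test, 1 with array weights and 1 without MRP8NRASD12 8157 and HR-MDS 8398, with 0 to 3 when each array was left out. Against HR-MDS it was 2, and became 0 by the t-test and 1 to 3 when each array was left out. In MRP8hBCL2 against MRP8NRASD12 it was 1, and became 0 without the lowest 0.25 of genes, where Ifit1 is not among the genes left, 2 with array weights and 0 by the t-test, with 0 to 1 when each array was left out. In MRP8hBCL2 against tethBCL2 it was 2, and became 1 after quantile normalization, after subtraction of array medians, without the lowest 0.25 and by the t-test, with 1 to 2 when each array was left out. In tethBCL2 against MRP8NRASD12 it was 0 and became 1 after subtraction of array medians (Irf7, 0.41, adjusted p = 0.0257). Of the members, Ifit1 in MRP8hBCL2 against tethBCL2 passed in all 9 other settings that measured it and without any 1 of 15 arrays. The cause of each change was not tested, apart from the genes lost to the filter.

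The median log2 fold of the members moved in HR-MDS against tethBCL2 from 0.00 to -0.17 (array medians), in HR-MDS against MRP8NRASD12 from -0.18 to -0.013 (array weights) and 0.0379 (without those 2 arrays), in AML post MDS against HR-MDS from -0.23 to -0.50 (without the lowest 0.25), in tethBCL2 against MRP8NRASD12 from -0.32 to -0.10 (quantile), -0.11 (array medians) and -0.12 (array weights), and in MRP8hBCL2 against tethBCL2 from 0.00 to -0.16 (array medians). Subtracting array medians moved the median of all genes from 0.04 to -0.14, from -0.05 to 0.16 and from 0.03 to -0.14 in HR-MDS against tethBCL2, tethBCL2 against MRP8NRASD12 and MRP8hBCL2 against tethBCL2. The share of higher calls in those 3 comparisons went from 94.0% to 62.3%, from 32.2% to 78.1% and from 59.6% to 36.6%.

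Over the 10 settings other than leaving out an array the counts of all genes called ran from 5 to 777 (HR-MDS against tethBCL2, 67 as reported), 1 to 7 (HR-MDS against MRP8NRASD12, 2), 0 to 1759 (AML post MDS against MRP8hBCL2, 287), 292 to 5244 (against MRP8NRASD12, 3324), 1408 to 5741 (against HR-MDS, 3594), 76 to 4328 (tethBCL2 against MRP8NRASD12, 1312), 432 to 6533 (MRP8hBCL2 against MRP8NRASD12, 3288), 2425 to 5765 (MRP8hBCL2 against tethBCL2, 3354) and 0 to 14 (the contrast, 0). Leaving out each array in turn gave 14 to 762 in AML post MDS against MRP8hBCL2, 6 to 264 in HR-MDS against tethBCL2 and 592 to 3243 in tethBCL2 against MRP8NRASD12. Of the 40 other type I interferon-stimulated genes, the number lower in AML post MDS against MRP8hBCL2 went from 0 to 3 after quantile normalization or subtraction of array medians and to 9 with array weights, and the number higher in MRP8hBCL2 against tethBCL2 from 13 to 10, 9 and 17 under the same settings. No paired analysis was possible because mouse numbers are not shared between groups.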
